A study of Mus musculus with 6 samples.

Results

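Pdxk, Pdxp, Plpbp, Pygb and Pygl are 5 genes that handle PLP (pyridoxal 5′-phosphate), the cofactor made from vitamin B6, or encode glycogen phosphorylases, which carry PLP at their active site. They were taken by symbol from the deposited table of gene counts. All 5 were found among its 11922 genes, and all 5 were among the 11759 genes tested. The cells were CD8+ T cells of the spleen of C57BL6/J mice, isolated by positive selection with CD8α beads. They were activated with anti-CD3/CD28 Dynabeads and 100 units/ml human IL-2, washed after 72 h and expanded for 4 further days. During the 7 days of culture they received either water (vehicle) or 0.25 mM aminooxyacetic acid (AOA). By the donor numbers in the labels, the same 3 mice gave a culture to both groups, which gave 3 libraries per group with the number of the mouse as the replicate number. Both groups shared the strain, the beads and the cytokine, and no genetic change was made. For its experiments in general the methods state mice of both sexes and an age above 6 weeks, without the sex of each donor.

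Pyridoxal kinase, encoded by Pdxk, adds the phosphate that turns vitamin B6 taken up from the medium into its retained form. Pyridoxal phosphatase, encoded by Pdxp, removes that phosphate, and the PLP-binding protein encoded by Plpbp takes part in keeping free PLP, a reactive aldehyde, within bounds. Glycogen phosphorylase releases glucose 1-phosphate from glycogen and uses the phosphate of PLP in catalysis, unlike the transaminases, which use its aldehyde. Pygb encodes the brain form, Pygl the liver form and Pygm the muscle form of the enzyme. AOA reacts with the aldehyde of PLP and thereby blocks transaminases and other PLP enzymes. The comparison asked which RNAs of the kinase, the phosphatase, the binding protein and the phosphorylases differed in level after culture with this inhibitor.

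The 2 members that passed the test were Pdxp and Pygl, and the 250 bases before their transcription starts are shown to set them side by side. The sequences are those of RefSeq on GRCm38.p6, read 5′ to 3′ on the strand of the gene, and a window was found for 4 of the 5 members. Capitals mark ACGTG, the core of the site bound by hypoxia-inducible factors (HIF), GGGCGG, the GC box, and CCAAT, the CCAAT box, each on either strand. These motifs were chosen with the sequences in view. The Pdxp window lies at chr15:78913669-78913918 on the plus strand. The Pygl window lies at chr12:70227684-70227933 on the minus strand, before the RefSeq start, which is inside the longer GENCODE gene model.
Pdxp: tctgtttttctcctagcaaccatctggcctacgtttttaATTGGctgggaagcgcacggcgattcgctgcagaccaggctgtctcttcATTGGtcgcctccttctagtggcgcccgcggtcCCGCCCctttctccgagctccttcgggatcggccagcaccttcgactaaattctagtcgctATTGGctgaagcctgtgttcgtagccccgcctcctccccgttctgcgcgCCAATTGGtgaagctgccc
Pygl: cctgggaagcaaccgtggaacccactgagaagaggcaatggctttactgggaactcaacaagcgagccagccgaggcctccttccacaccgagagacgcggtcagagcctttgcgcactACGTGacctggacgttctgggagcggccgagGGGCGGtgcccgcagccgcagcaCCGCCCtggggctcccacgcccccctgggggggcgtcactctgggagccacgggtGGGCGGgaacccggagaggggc
The Pdxp window held 5 CCAAT matches, of which the last 2 overlap on opposite strands, 1 GGGCGG match and 0 ACGTG matches. In the Pygl window there were 0 CCAAT matches, 3 GGGCGG matches and 1 ACGTG match, whose first base was at position -131 from the start. Of 32851 mouse windows of the same length, 33.8% held CCAAT, 32.7% held GGGCGG and 16.6% held ACGTG, and 0.213% held at least 5 CCAAT matches. Pdxk held the palindrome CACGTG, which is present in 6.02% of windows and contains ACGTG on both strands, and Pygb held 1 ACGTG match. GC content was 58.8% in the Pdxp window and 69.2% in the Pygl window, against a median of 52.4% of all windows. A match describes letters only and is not a measured binding site.

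Total counts ran from 12881962 to 18934869 in the vehicle libraries and from 18696114 to 21997078 in the AOA libraries. In a principal component analysis the first component, with 80.1% of the variance, separated the groups, and the second, with 10.8%, set vehicle replicate 2 apart at -44.2. Markers of CD8 T cells summed to between 2908 and 3737 CPM (counts scaled to library size) in the vehicle libraries and to between 3994 and 4644 CPM in the AOA libraries, with all 5 of the listed markers found, and Cd8a and Cd8b1 rose with AOA. Cd3d, Cd3e and Cd3g were not called, at log2 fold changes of -0.13, -0.27 and -0.31. Levels are given as CPM on library sizes normalised by TMM, or as CPM per kilobase of the deposited gene length (RPKM) where genes are compared with each other. A log2 fold change compares AOA with vehicle and comes from the quasi-likelihood test of edgeR, with p-values adjusted by Benjamini-Hochberg across all genes tested and a threshold of 0.05. The median log2 fold change of all genes tested was -0.02.

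Of the 5 members, Pdxp rose, Pygl fell, and Pdxk, Plpbp and Pygb did not pass the test. Against this, 53.0% of all genes tested were called, 26.2% as higher and 26.8% as lower with AOA, so the share of 2 in 5 members called was close to that of the whole table. The median log2 fold change over the members was -0.24. Because whole cultures were sequenced, fewer cells of a type and less RNA per cell cannot be told apart in any of these values.

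**Figure D1:**
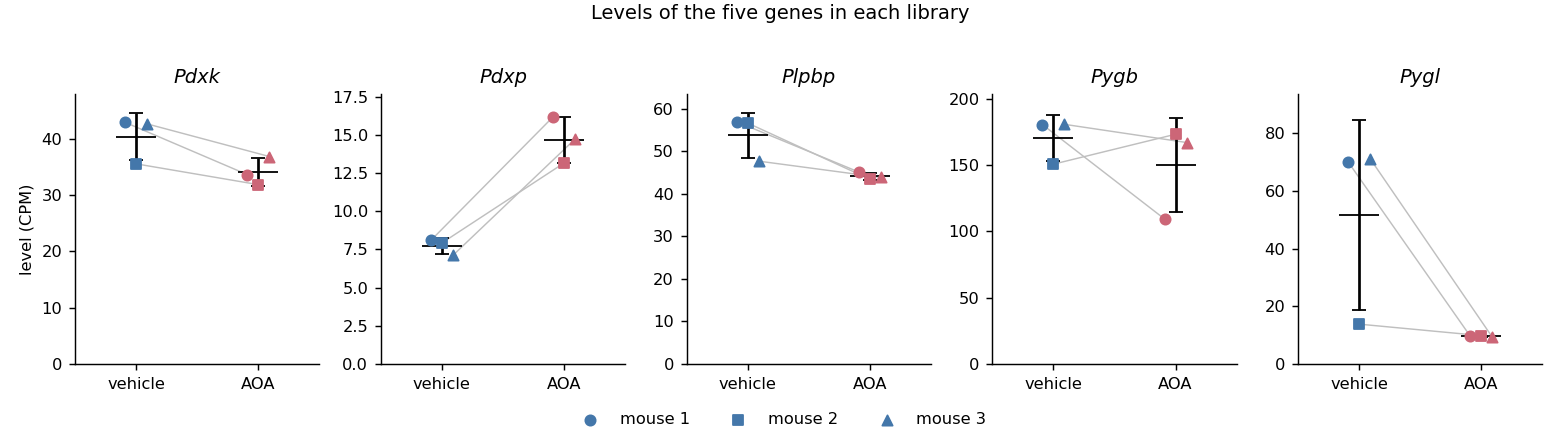
Levels of the 5 members in CPM (linear axes starting at 0, each with its own scale) in the vehicle and AOA libraries. Each point is 1 library, its shape gives the mouse and its colour the group (blue for vehicle, red for AOA), grey lines join the libraries of 1 mouse, and bars give the mean and SD of 3 libraries. Pdxp libraries with AOA, from 13.2 to 16.2 CPM, lie above all vehicle libraries, and Pygl in vehicle replicate 2, at 13.8 CPM, lies near the AOA libraries.

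Pdxk (Entrez gene 216134) spans bases 78436744 to 78464975 of chromosome 10 on the minus strand of GRCm38 (mm10), with 11 merged exons. Its level was 42.9, 35.6 and 42.7 CPM in vehicle replicates 1, 2 and 3, against 33.7, 31.9 and 36.9 CPM in AOA replicates 1, 2 and 3. The groups overlapped, since AOA replicate 3 was above vehicle replicate 2. The means were 40.4 ± 4.18 CPM with vehicle and 34.1 ± 2.53 CPM with AOA (SD, n = 3), a log2 fold change of -0.24 (SE 0.14, edgeR adjusted p = 0.172). An approximate 95% interval, taken from the standard error with 4 degrees of freedom, ran from -0.63 to 0.15. The level was lower with AOA in 3 of 3 mice, by log2 differences of -0.35, -0.16 and -0.21. The difference in the kinase did not pass the test, and the interval holds decreases as well as a small increase.

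Pdxp (Entrez gene 57028) lies on the plus strand of chromosome 15 from 78913919 to 78919517 and has 2 merged exons. The counts behind its values were 102, 125 and 131 with vehicle and 352, 249 and 292 with AOA. These correspond to 8.10, 7.92 and 7.11 CPM with vehicle and to 16.2, 13.2 and 14.7 CPM with AOA. Every AOA library was above every vehicle library. Groups were separated in this way, in either direction, at 3 of the 5 members and at 62.1% of all genes tested. The mean rose from 7.71 ± 0.526 CPM to 14.7 ± 1.51 CPM (SD, n = 3), a log2 fold change of 0.93 (SE 0.18, edgeR adjusted p = 0.00220) or 1.91-fold. Its interval ran from 0.44 to 1.43, and the phosphatase was higher in 3 of 3 mice, with log2 differences of 0.99, 0.72 and 1.04. The increase was called under each of 14 alternatives, with log2 fold changes between 0.86 and 1.01. In size it stood at the 70.2 percentile of absolute log2 fold changes of the genes tested, whose median was 0.56.

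The gene model upstream of Pdxp on the same strand, Sh3bp1, ends 1867 bases before it. Sh3bp1 had 216 ± 28.4 CPM with vehicle and 222 ± 22.4 CPM with AOA (SD, n = 3), a log2 fold change of 0.04 (SE 0.15, edgeR adjusted p = 0.831). No difference at this neighbour passed the test. In GENCODE vM21 the protein-coding model Gm49510 shares 903 exon bases with Pdxp on the same strand and has no row in the counts, so its part in the values of Pdxp was not tested.

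Plpbp (Entrez gene 114863) lies on the plus strand of chromosome 8 from 27042555 to 27056132, with 5 merged exons. Vehicle replicates 1, 2 and 3 had 57.0, 56.7 and 47.7 CPM, and AOA replicates 1, 2 and 3 had 45.1, 43.4 and 43.9 CPM. The groups did not overlap, although vehicle replicate 3 was close to the AOA libraries. Plpbp had a mean of 53.8 ± 5.27 CPM with vehicle and 44.2 ± 0.882 CPM with AOA (SD, n = 3). Its log2 fold change of -0.28 (SE 0.13, edgeR adjusted p = 0.0906) did not pass the threshold, with an interval from -0.64 to 0.07. All 3 mice had the lower level with AOA, by -0.34, -0.38 and -0.12 on the log2 scale.

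Antisense models overlap exons of 2 members on the opposite strand in GENCODE vM21, 4921516A02Rik by 2104 bases of Pdxk and Proscos by 400 bases of Plpbp. Neither has a row in the counts, and the sources used here do not state whether counting used strand, so reads of these pairs may not have been told apart.

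The opposing enzymes of PLP can be set against each other within a library, per base of gene length. The ratio of Pdxk to Pdxp was 2.08, 1.76 and 2.36 in vehicle replicates 1, 2 and 3, against 0.817, 0.951 and 0.983 in AOA replicates 1, 2 and 3. Per deposited length, kinase RNA was thus above phosphatase RNA in every vehicle library and below it in every AOA library. The crossing rests on those lengths, since the AOA counts of Pdxk (732, 603 and 731) were above those of Pdxp (352, 249 and 292). On the log2 scale the ratio was 1.04 ± 0.21 with vehicle and -0.13 ± 0.14 with AOA (SD, n = 3). The difference of -1.17 had p = 0.1 in a two-sided exact permutation test, the smallest p that 3 against 3 libraries allow, and 0.1 after Benjamini-Hochberg adjustment over the 2 ratios tested. It was negative in 3 of 3 mice, at -1.35, -0.89 and -1.26, and ranged from -1.28 to -1.07 when each library was left out in turn. The ratio combines 1 member that passed the test across genes with 1 that did not.

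**Figure D2:**
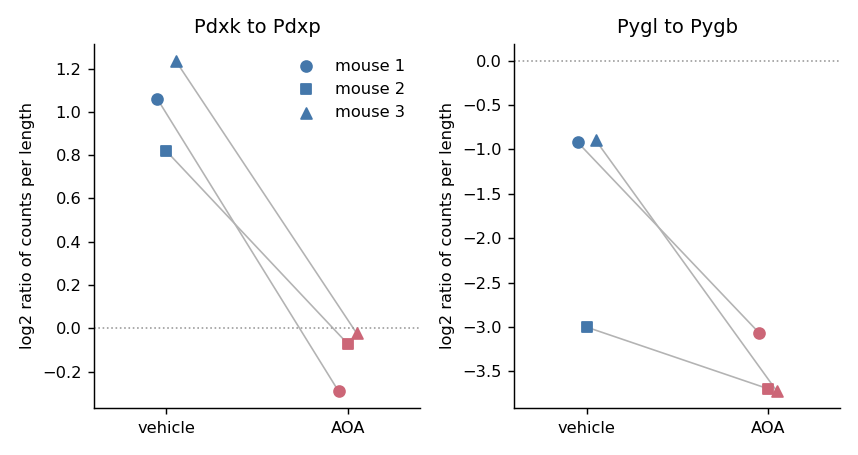
Log2 ratios of RPKM values within each library, Pdxk over Pdxp and Pygl over Pygb, in the vehicle and AOA groups. Points are libraries, the shape of a point gives the mouse and its colour the group (blue for vehicle, red for AOA), and lines join the libraries of a mouse. The Pdxk to Pdxp ratio crosses 0 between the groups in all 3 mice, and the Pygl to Pygb ratio of vehicle replicate 2, at -3.00, lies beside the AOA libraries.

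Pygb (Entrez gene 110078) lies on the plus strand of chromosome 2 from 150786735 to 150831758, with 21 merged exons. It had 180, 151 and 181 CPM in vehicle replicates 1, 2 and 3, against 109, 173 and 167 CPM in AOA replicates 1, 2 and 3. AOA replicate 1 was the lowest library, and the other AOA libraries lay within the range of the vehicle group. Means of 171 ± 17.3 CPM with vehicle and 149.8 ± 35.2 CPM with AOA (SD, n = 3) gave a log2 fold change of -0.19 (SE 0.19, edgeR adjusted p = 0.427). The interval ran from -0.71 to 0.33. Pygb was lower with AOA in 2 of 3 mice, with log2 differences of -0.72, 0.20 and -0.11. Without AOA replicate 1 the log2 fold change was -0.0018, so the difference in means rested on that library.

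Pygl (Entrez gene 110095), on the minus strand of chromosome 12 from 70190811 to 70231488 with 22 merged exons, showed the largest difference of the 5 members. Its counts were 883, 218 and 1312 with vehicle and 209, 186 and 184 with AOA. The level was 70.1, 13.8 and 71.2 CPM in vehicle replicates 1, 2 and 3, against 9.61, 9.83 and 9.28 CPM in AOA replicates 1, 2 and 3. The AOA libraries lay close together and below all vehicle libraries, while vehicle replicate 2 was far below the other vehicle libraries. The mean fell from 51.7 ± 32.8 CPM to 9.57 ± 0.277 CPM (SD, n = 3), 5.40-fold lower, with a log2 fold change of -2.43 (SE 0.50, edgeR adjusted p = 0.00325) and an interval from -3.83 to -1.04. The liver form was lower in 3 of 3 mice, by log2 differences of -2.85 and -2.93 in mice 1 and 3 and of -0.49 in mouse 2. Its absolute log2 fold change stood at the 94.8 percentile of the genes tested. Without vehicle replicate 2 the log2 fold change was -2.85 (adjusted p = 2.94e-06 by edgeR), and with a replicate block for mouse it was -2.16 (adjusted p = 0.00435 by edgeR). It was called under each of the 14 alternatives.

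**Figure D3:**
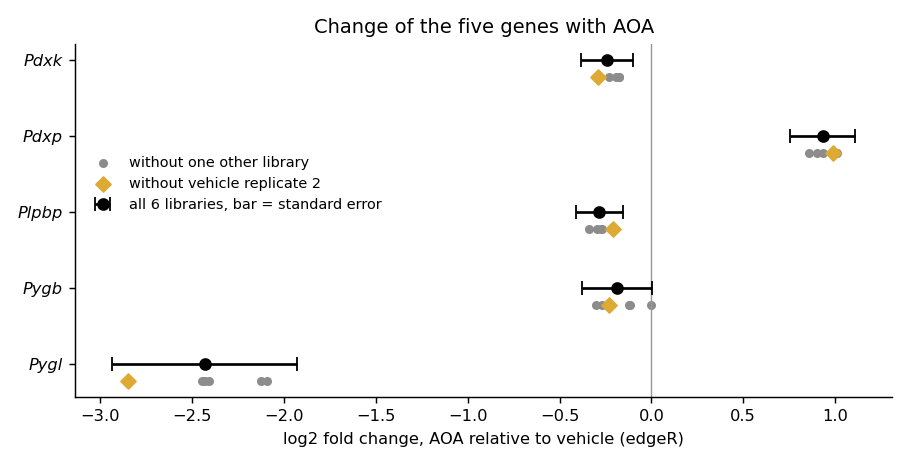
Log2 fold changes of the 5 members, AOA relative to vehicle, from edgeR. Black points with bars give the estimate from all 6 libraries and its standard error, yellow diamonds the estimate without vehicle replicate 2, and grey points the estimates without each other library in turn. Pdxp lies at 0.93 and Pygl at -2.43, and leaving out vehicle replicate 2 moves Pygl to -2.85.

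Vehicle replicate 2 was low at Pygl beyond nearly all other genes. Its Pygl level differed from the mean of vehicle replicates 1 and 3 by -2.34 log2 units, at the 0.272 percentile of this difference among the genes tested, whereas Pdxk, Pdxp, Plpbp and Pygb were at -0.27, 0.06, 0.12 and -0.26. Myeloid markers moved with the groups as well. Of 9 markers listed 5 were found, and their sum was 61.2, 121 and 61.3 CPM in vehicle replicates 1, 2 and 3, against 5.42, 10.4 and 5.90 CPM in AOA replicates 1, 2 and 3. Itgam, Cd68 and Fcer1g fell, Lyz2 and Cd14 reached at most 1.16 and 1.03 CPM and were not tested, and Csf1r, Adgre1, S100a8 and S100a9 have no row in the counts. The high sum of vehicle replicate 2 came with Fcer1g, a gene that natural killer cells use as well, at 2.22, 53.4 and 5.86 CPM in the vehicle libraries. Natural killer cell markers, of which 2 of 3 were found, summed to 41.7, 114 and 20.1 CPM with vehicle and to between 3.53 and 11.6 CPM with AOA. Nearly all of this was Klrb1c, which fell, and Ncr1, not tested, was at most 2.35 CPM in any library and at 0 in vehicle replicates 1 and 3. CD4 T cell markers, all 3 found, summed to between 82.2 and 137 CPM with vehicle and to between 21.7 and 31.3 CPM with AOA. Most of that sum was Cd4, which fell as Cd40lg did, whereas Foxp3 had 13.3 ± 2.49 CPM with vehicle and 17.1 ± 1.42 CPM with AOA (SD, n = 3) and was not called (0.36, edgeR adjusted p = 0.127). For B cell markers, 4 of 5 found, these sums were between 12.6 and 16.6 CPM and between 22.6 and 30.7 CPM. Platelet markers were represented by Itga2b alone, at between 2.03 and 4.84 CPM with vehicle and between 0.151 and 0.581 CPM with AOA, and 0 of 4 erythroid markers were found. The part of other cells in the values of the members was not tested.

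The 3 glycogen phosphorylases can be compared per length. Pygb gave 61.7%, 84.3% and 60.9% of their summed RPKM in vehicle replicates 1, 2 and 3, against 82.4%, 87.1% and 87.0% in AOA replicates 1, 2 and 3. Pygl gave 32.6%, 10.5% and 32.7% with vehicle and 9.86%, 6.73% and 6.58% with AOA. Pygm stayed between 5.13% and 7.75% in every library. The brain form was thus the most abundant phosphorylase RNA throughout, and Pygl held its high share in vehicle replicates 1 and 3 only. The sum was 76.2, 46.5 and 77.3 RPKM with vehicle and 34.5, 51.8 and 50.0 RPKM with AOA, with overlap through vehicle replicate 2.

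**Figure D4:**
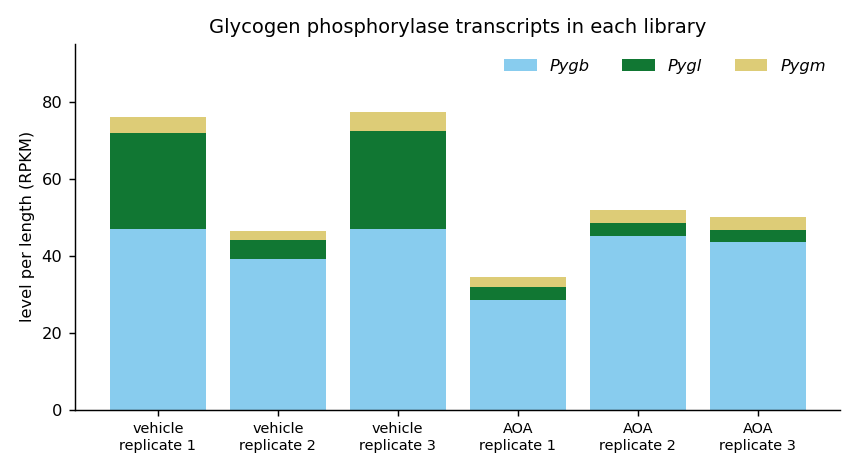
RPKM of Pygb, Pygl and Pygm stacked for each of the 6 libraries (linear axis from 0). The Pygl segment is tall in vehicle replicates 1 and 3, at 24.8 and 25.3 RPKM, and between 3.29 and 4.90 RPKM in the other libraries.

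The log2 ratio of Pygl to Pygb was -0.92, -3.00 and -0.90 in vehicle replicates 1, 2 and 3, against -3.06, -3.69 and -3.72 in AOA replicates 1, 2 and 3. Vehicle replicate 2 lay just above AOA replicate 1, so the groups were separated only narrowly. The difference of -1.89 between means of -1.61 ± 1.21 and -3.49 ± 0.37 (SD, n = 3) had p = 0.1 in the two-sided exact permutation test, again the smallest p possible. It was negative in 3 of 3 mice, at -2.14, -0.69 and -2.83. It ranged from -2.59, without vehicle replicate 2, to -1.53, without vehicle replicate 3, and with counts thinned to equal totals it was -1.90, with p = 0.2 in the exact permutation test. Pygm itself had 12.4, 6.85 and 14.3 CPM with vehicle and 7.68, 9.20 and 9.23 CPM with AOA, with overlapping groups and a log2 fold change of -0.36 (SE 0.27, edgeR adjusted p = 0.286). Without vehicle replicate 2 it was called, at -0.59 (adjusted p = 0.0226 by edgeR). The transcripts of Pygl, Pygb and Pygm share 0 windows of 75 identical bases, the read length, so that whole reads can be told apart between them.

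The order of the members per deposited length differed between the groups. Comparisons between genes depend on the lengths used. Those deposited for Plpbp and Pygl were 4536 and 2821 bases, against 12648 and 6895 merged exon bases in GENCODE. In the vehicle libraries Pygb was highest, at 39.2 to 47.1 RPKM, followed by Pygl at 4.90 to 25.3, Plpbp at 10.5 to 12.6, Pdxk at 6.98 to 8.43 and Pdxp at 3.55 to 4.05 RPKM. The range of Pygl spanned those of Plpbp and Pdxk, and the other neighbours did not overlap. With AOA, Pygb had 28.5 to 45.1 RPKM, Plpbp 9.58 to 9.95, Pdxp 6.58 to 8.09, Pdxk 6.26 to 7.24 and Pygl 3.29 to 3.49 RPKM. Pdxp and Pdxk overlapped in this order, and Pygl had become the lowest member. For scale, the median gene tested had 10.65 RPKM with vehicle and 10.63 RPKM with AOA.

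Among the other genes of vitamin B6 metabolism, 4 of 7 listed were found and tested, of which 1 rose, 0 fell and 3 were not called, with a median log2 fold change of 0.38, where 53.0% of all genes were called. Pgp, which encodes a phosphatase related to that of Pdxp, had 14.7, 11.0 and 12.6 CPM with vehicle and 22.6, 16.9 and 18.9 CPM with AOA. It rose by a log2 fold change of 0.61 (SE 0.19, edgeR adjusted p = 0.0202), a call lost without AOA replicate 1 (adjusted p = 0.0601) and without AOA replicate 3 (adjusted p = 0.0563). Pdxp and Pgp transcripts share 0 windows of 25 identical bases. Slc19a2, also in this list, encodes a thiamine transporter, and whether the mouse protein carries pyridoxine was not tested. Slc19a2 had 14.4, 41.6 and 14.2 CPM with vehicle and 42.7, 48.6 and 44.0 CPM with AOA. The groups did not overlap, yet vehicle replicate 2 lay next to the AOA libraries, as at Pygl. Its log2 fold change of 0.95 (SE 0.37) had an adjusted p of 0.0566 by edgeR. Slc19a2 was called by DESeq2 (0.95, adjusted p = 0.0171), by limma voom (1.14, adjusted p = 0.0201), with a replicate block for mouse (1.13, adjusted p = 0.0068) and when vehicle replicate 2 was left out (1.70, adjusted p = 2.23e-05). Phospho2, which encodes a phosphatase active on PLP, had -0.11 (adjusted p = 0.596 by edgeR).

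The enzymes that use PLP gave a background for Pdxp. Of 46 listed, 30 were found and tested, of which 12 rose, 3 fell and 15 were not called, with a median log2 fold change of 0.27. Among all genes 26.2% rose and 26.8% fell, and 53.0% were called in either direction. Shmt1 (2.13, adjusted p = 0.00160), the cytosolic serine hydroxymethyltransferase, and Psat1 (1.93, adjusted p = 3.83e-04), phosphoserine aminotransferase, were the largest increases together with Gldc, the glycine decarboxylase of mitochondria (2.17, adjusted p = 0.0134 by edgeR). Shmt1 had 19.7 CPM in vehicle replicate 2, against 6.75 and 6.41 CPM in the other vehicle libraries, and its log2 fold change was 2.90 without that library. Gldc was at most 3.33 CPM in any library and was not called without AOA replicate 2 (1.61, adjusted p = 0.0528). Kyat1, a kynurenine aminotransferase, Mocos, the molybdenum cofactor sulfurase, and Sgpl1, the lyase of sphingosine 1-phosphate, fell, with log2 fold changes of -1.27, -1.20 and -0.55 (adjusted p = 0.00181, 7.21e-04 and 0.00670 by edgeR).

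Around the phosphorylases, 7 of 8 listed genes of glycogen synthesis were found, with 2 higher, 1 lower and 4 not called, where 53.0% of all genes were called. Gyg, glycogenin, the protein primer of a glycogen chain, fell from 170.5 ± 9.44 CPM to 89.8 ± 8.03 CPM (SD, n = 3), a log2 fold change of -0.92 (SE 0.13, edgeR adjusted p = 4.32e-04), and was lower in 3 of 3 mice. Gbe1, the branching enzyme, rose by 0.60 (adjusted p = 0.00802), and Ugp2, which makes UDP-glucose, by 0.37 (adjusted p = 0.0345). The call of Ugp2 was lost with the replicate block (0.37, adjusted p = 0.0589) and on leaving out vehicle replicate 1, AOA replicate 2 or AOA replicate 3 (adjusted p = 0.105, 0.0597 and 0.0889). Gys1, glycogen synthase, had -0.23 (adjusted p = 0.261). The phosphoglucomutase genes Pgm1, Pgm2 and Pgm2l1 had 0.11, -0.39 and 0.01, and the rows called Pgm1 and Pgm2 carry the Entrez numbers of the genes that RefSeq now calls Pgm2 and Pgm1. Pgm2 was called without AOA replicate 2, at -0.52 (adjusted p = 0.0371).

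Of the 3 listed genes of glycogen breakdown beside the members, 0 rose and 1 fell, where 26.2% of all genes rose and 26.8% fell. This was Gaa, the acid glucosidase of lysosomes, at -0.53 (SE 0.19, edgeR adjusted p = 0.0439), a call lost in 8 alternatives, among them without each library other than AOA replicate 2. Phosphorylase kinase, the activator of the phosphorylases, had 4 of 5 subunit genes in the counts and 3 tested. Of these 1 fell, against 26.8% of all genes. Its catalytic subunit Phkg2 fell by 0.71 on the log2 scale (SE 0.18, edgeR adjusted p = 0.00894), while Phkb had -0.38 (adjusted p = 0.0611) and Phka2 0.13 (adjusted p = 0.585). Phka1 did not pass the low-count filter. Among the subunits that bring protein phosphatase 1 to glycogen, 3 of 7 were found and 1 rose, against 26.2% of all genes. This was Ppp1r3e, at 1.30 on the log2 scale (SE 0.30, edgeR adjusted p = 0.00578), from 3.30 ± 1.18 to 8.11 ± 1.47 CPM (SD, n = 3). Ppp1r3b and Ppp1r3f had -0.47 and -0.29 (adjusted p = 0.0678 and 0.502). Gsk3a and Gsk3b, the kinases of glycogen synthase, had 0.17 and 0.18 (adjusted p = 0.354 for each) and were called without AOA replicate 1, at 0.29 and 0.33. Nhlrc1, malin, was the only gene found of the 3 in the laforin group and had 0.24 (adjusted p = 0.760).

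**Figure D5:**
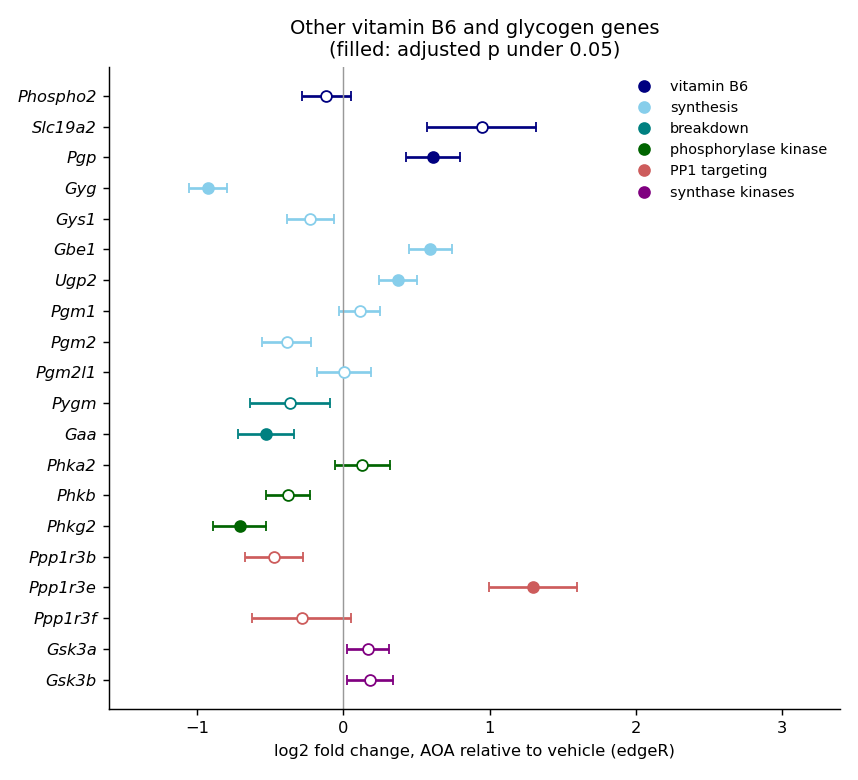
Log2 fold changes, AOA relative to vehicle, with standard errors from edgeR for the genes named here of the other vitamin B6 and glycogen lists, Nhlrc1 not included, coloured by list (PP1, protein phosphatase 1). Filled points have an adjusted p under 0.05. Ppp1r3e at 1.30 and Gyg at -0.92 are the farthest filled points to either side.

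Both called members, Pdxp and Pygl, are in the list of HIF1-driven metabolic genes that the study built from other T cells. The 3 HIF subunit genes tested fell with AOA, with log2 fold changes of -1.41 for Hif1a, -3.95 for Epas1 and -0.53 for Arnt (adjusted p = 3.25e-04, 7.60e-05 and 0.00874 by edgeR), and the call of Arnt was lost without vehicle replicate 3 (adjusted p = 0.0549). Hif1a had 620, 430 and 648 CPM with vehicle and 198, 237 and 204 CPM with AOA. The RNA of Pygl thus moved in the direction of that of Hif1a, and the RNA of Pdxp in the opposite direction. HIF protein and activity were not measured in these libraries, and a part of HIF in either change was not tested. In another data set the study reports that HIF1 expressed ectopically in CD8+ T cells raised Pdxp. All 22 genes of the list, both members included, were tested, of which 4 rose, 5 fell and 13 were not called, with a median log2 fold change of -0.06, against 26.2% higher and 26.8% lower among all genes. The number called ranged from 6, without vehicle replicate 1 or 3, to 12, without vehicle replicate 2. Of the 4 genes of this list that the text of the study names beside Pdxp, Ldha rose by 1.38 and Hk2 by 0.83 (adjusted p = 2.25e-04 and 0.0331), Slc2a3 fell, at -2.06 (adjusted p = 3.21e-05), and Slc16a3 had 0.41 (adjusted p = 0.0528). Slc16a3 was called as higher with median-of-ratios factors, with total counts only and with no low-count filter (adjusted p = 0.0483, 0.0447 and 0.0396). Hk2 was not called without vehicle replicate 1 or 3 or AOA replicate 2 or 3.

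The genes whose profile over the 6 libraries was most like that of each member were found by the root mean square difference of centred log2 CPM, among 8761 genes with a mean of at least 10 CPM. For Pdxp they were Zw10, Dbr1 and Yars2, with differences of 0.0514, 0.0686 and 0.0700 log2 units. Pdxk was nearest to Cc2d1a, Tjap1 and Trappc5, from 0.0386 to 0.0453, and Plpbp to Ppp1r16a, Pcgf3 and Ripk2, from 0.0296 to 0.0499. The profile of Pygb, with its low AOA replicate 1, had Bcor and Gatad2b among its nearest genes, at 0.0466 and 0.0495. Pygl had no neighbour as close, and its nearest genes were Neil1, Wdr78 and Aldoc, at 0.263, 0.269 and 0.296 log2 units. This difference is not scaled to the size of a change, so a gene that varies more can lie farther from all others. Pearson r with Pygl was 0.991, 0.982 and 0.974 for these genes. The corresponding r was between 0.962 and 0.971 for the nearest genes of Pdxk and between 0.989 and 0.998 for those of Pdxp. Neil1 had 38.7, 12.4 and 38.6 CPM with vehicle and 6.48, 7.61 and 6.96 CPM with AOA, so that vehicle replicate 2 was low there too.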

How the data were processed

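RNA of splenic CD8+ T cells was measured in 3 vehicle and 3 AOA libraries from the same 3 mice. The authors deposited raw counts of uniquely mapped reads per gene, each with its Entrez number, symbol and length. The labels name bcl2fastq, STAR, featureCounts, DESeq2 and the build mm10, and the methods add stranded mRNA libraries read as pairs of 75 bases. The sources used here do not give tool versions, annotation, strand setting or gene filter.

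The analysis used R 4.3.3 and edgeR 4.0.16 (TMM, filterByExpr with a minimum count of 10, robust quasi-likelihood test, Benjamini-Hochberg over 11759 genes, threshold 0.05, without the mouse number). A prior count of 2 was added for log2 CPM, and RPKM values use the deposited lengths. Steps were tested on simulated data. No replicate pair agreed within sampling noise (chi-square per gene from 10.0 to 71.1). Intervals assume independent cultures. Coordinates and overlaps came from GENCODE vM21 and promoter windows from RefSeq.

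The labels pair the groups by mouse, and deviations from the group means correlated within mice 1, 2 and 3 with r of 0.0868, 0.189 and 0.194 across genes. Alternatives were a replicate block for mouse, leaving out each library, thinning to equal totals, DESeq2 1.42.0, voom of limma 3.58.1, scaling by median-of-ratios or by total counts alone, testing all genes or those with at least 10 CPM in 3 libraries, and 0.5 counts added to ratios.

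The members and gene lists were chosen with earlier results of these data known. The HIF1 metabolic list of the study, built from other data sets, was added last, and 1 of its symbols, Pdpx, was read as Pdxp. Named genes are the 5 members, all genes found of the vitamin B6, glycogen and HIF lists, the 3 called PLP enzymes per direction with the largest absolute log2 fold change, the 3 genes most like each member, and overlapping genes. Of the HIF1 list only members and genes of the study's text are named. Sh3bp1 and the marker genes were named after their values were seen. Results of some genes that this rule takes are not reported here.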

Additional observations from a re-analysis of the deposited data

How the results depend on the processing

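Under 14 alternatives Pdxp stayed higher and Pygl lower, both called, with log2 fold changes of 0.86 to 1.01 and of -2.85 to -2.09, and Pdxk, Plpbp and Pygb were never called. With the replicate block, 6292 genes were called, 6007 of them also without it, and among the members and the named genes of the vitamin B6, PLP enzyme, glycogen and HIF lists it changed the calls of Slc19a2 and Ugp2 and no other. The count of called vitamin B6 genes beside the members, 1 in the report, was 2 by DESeq2, by limma voom and with the replicate block, and 0 to 3 with a library left out. That of glycogen breakdown, 1 in the report, was 0 with total counts only, with no low-count filter and after thinning, and 0 to 1 with a library left out. With at least 10 CPM in 3 libraries, phosphorylase kinase subunits had 2 calls and phosphatase-targeting subunits 0, where fewer genes were tested. Glycogen synthase kinases had 0 to 2 calls with a library left out. Directions turned only in genes that were not called, namely Pgm2l1 (-0.024 with at least 10 CPM, and -0.11 to 0.13 with a library left out) and, with a library left out, Nhlrc1 (-0.23 to 1.25), Phka2 (-0.019 to 0.25) and Ppp1r3f (-0.50 to 0.20). The numbers of genes raised and lowered ranged from 2519 to 3499 and from 2433 to 3297 with a library left out. The cause of these changes was not tested. With 3 libraries per group no permutation test could give p under 0.1, and 102 to 131 counts of Pdxp per vehicle library limit its precision.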
